A study of Homo sapiens with 4 samples.

Results

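The CDKN1A locus on chromosome 6 held 5 of the 4067 deposited p53 peaks, 2 of 2008 in the p53-R273H list and 3 of 2059 in the wildtype control list. A peak was taken as part of the locus when it lay inside or within 50 kb of CDKN1A, PANDAR or DINOL, which gave a window of 113.7 kb (hg38 chromosome 6, 36623621 to 36737332). No score was used in that choice. The peaks came from chromatin immunoprecipitation with sequencing (ChIP-seq), which recovers the DNA that a protein is crosslinked to, with the p53 antibody DO-1. The cells were HCT116, a human colon carcinoma line, grown as spheroids in spheroid medium with 2 growth factors, epidermal and basic fibroblast, at 20 ng/ml each, and used at passages 13 to 18. One group carried p53-R273H and the other was the wildtype control, labelled ctrl-19-7. All else that the labels name was common to both groups, and no treatment or p53-activating agent is named. How R273H was introduced is not stated in the labels, nor whether a wildtype allele remained beside it, nor whether either group was 1 clone. Each genotype had 1 ChIP library and 1 input library, so no difference between genotypes has a replicate check and none was tested. Read depth is unknown from peak lists, and peak lists cannot be set against marker genes of the labelled cell type.

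p53 is a transcription factor that binds DNA as a tetramer and switches on genes for cell cycle arrest, apoptosis and repair after stress. CDKN1A is its best-known arrest target. It encodes p21, an inhibitor of cyclin-dependent kinases (CDKs) that holds cells before DNA replication, and p53 response elements upstream of its start site have long been described. PANDAR and DINOL are long noncoding RNA (lncRNA) genes beside it, both known to be induced by p53 after DNA damage. The PANDAR transcript binds the transcription factor NF-YA and limits its apoptosis targets, and the DINOL transcript (also called DINO) binds p53 and helps to stabilise it. R273 is a residue through which p53 contacts DNA. R273H is a recurrent cancer mutation there, and the DO-1 epitope lies in the N-terminal part of the protein, away from that residue.

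The 3 genes lie close together, and that order frames the peaks. PANDAR spans 36673621 to 36675126 and overlaps the pseudogene LAP3P2 by 1377 bp. CDKN1A, taken over all of its annotated transcripts, spans 36676463 to 36687332, 1336 bp further on. DINOL, at 36677609 to 36678559, lies wholly inside the CDKN1A span. The RefSeq promoter table of GRCh38.p14 places the CDKN1A start site at 36678714 on the plus strand and the DINOL start site at 36678559 on the minus strand. The 2 start sites are thus 155 bp apart and point away from each other. No entry for PANDAR was matched in that table, so 2 of the 3 members have a start site here.

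The sequence between those start sites is shown because CDKN1A and DINOL share it as their upstream region. The first run is the 250 bases before the CDKN1A start site (hg38 chr6:36678464-36678713, plus strand, RefSeq), with the 96 bases that belong to the DINOL gene in capitals. The second run is the stretch between the 2 start sites (chr6:36678560-36678713), with the letters TATA and GGGCGG in capitals.

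CDKN1A upstream: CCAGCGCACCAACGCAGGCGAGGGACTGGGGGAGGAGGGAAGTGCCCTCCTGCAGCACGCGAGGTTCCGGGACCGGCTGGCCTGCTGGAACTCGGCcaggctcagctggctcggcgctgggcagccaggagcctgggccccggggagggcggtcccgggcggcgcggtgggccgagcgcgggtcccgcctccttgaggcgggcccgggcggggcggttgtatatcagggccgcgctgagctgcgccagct
Between the start sites: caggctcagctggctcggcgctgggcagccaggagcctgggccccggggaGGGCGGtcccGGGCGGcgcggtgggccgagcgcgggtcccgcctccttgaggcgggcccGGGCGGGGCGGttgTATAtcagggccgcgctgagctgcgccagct

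The TATA letters began 31 bases before the CDKN1A start site. GGGCGG, the core letters of the box bound by Sp1-type factors, occurred 4 times on the plus strand and 0 times on the minus strand, and the last pair shared 1 letter. Over the whole 300-base windows (250 before to 50 after each start site), both strands searched, 29.2% of 35116 RefSeq promoter windows held TATA, 45% held GGGCGG and 9.06% held it at least 4 times. The p53 decamer motif and CATG, a form of its core, were in neither the CDKN1A nor the DINOL window. Among all windows, 6.63% held the decamer and 54.9% held CATG. The CDKN1A window was 74.3% G and C, and 89% of windows had a lower share. A match is a description of letters, and a missing match says only that these letters are not in this window. No genome sequence was used here, so the bases under the peaks are not shown.

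None of the peaks touched the CDKN1A or the DINOL window; over all RefSeq promoter windows, 0.0854% were overlapped by an R273H peak and 0.185% by a wildtype peak. The peaks of the locus lay at lower coordinates than both windows, in 3 places. That side is upstream of the CDKN1A start site in the promoter table and downstream of the DINOL start site. The main peak sat across the lower-coordinate end of CDKN1A, at 36676091 to 36676811 for R273H and 36676079 to 36676883 for wildtype. Its midpoint was 2263 bp upstream of the CDKN1A start site in the promoter table for R273H and 2233 bp for wildtype. Both midpoints fell next to position 36676463, the lowest base annotated to CDKN1A, 12 bp below it for R273H and 18 bp above it for wildtype. CDKN1A is on the plus strand and its span covers all annotated transcripts, so an annotated transcript begins at that base. Distances to the CDKN1A start site are given here to the site in the promoter table, which is not the nearest annotated start to the main peak. A far peak lay on the other side of PANDAR, with midpoints 11431 bp (R273H) and 11450 bp (wildtype) upstream of the start site. A near peak, in the wildtype list only, had its midpoint 1297 bp upstream.

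**Figure D1:**
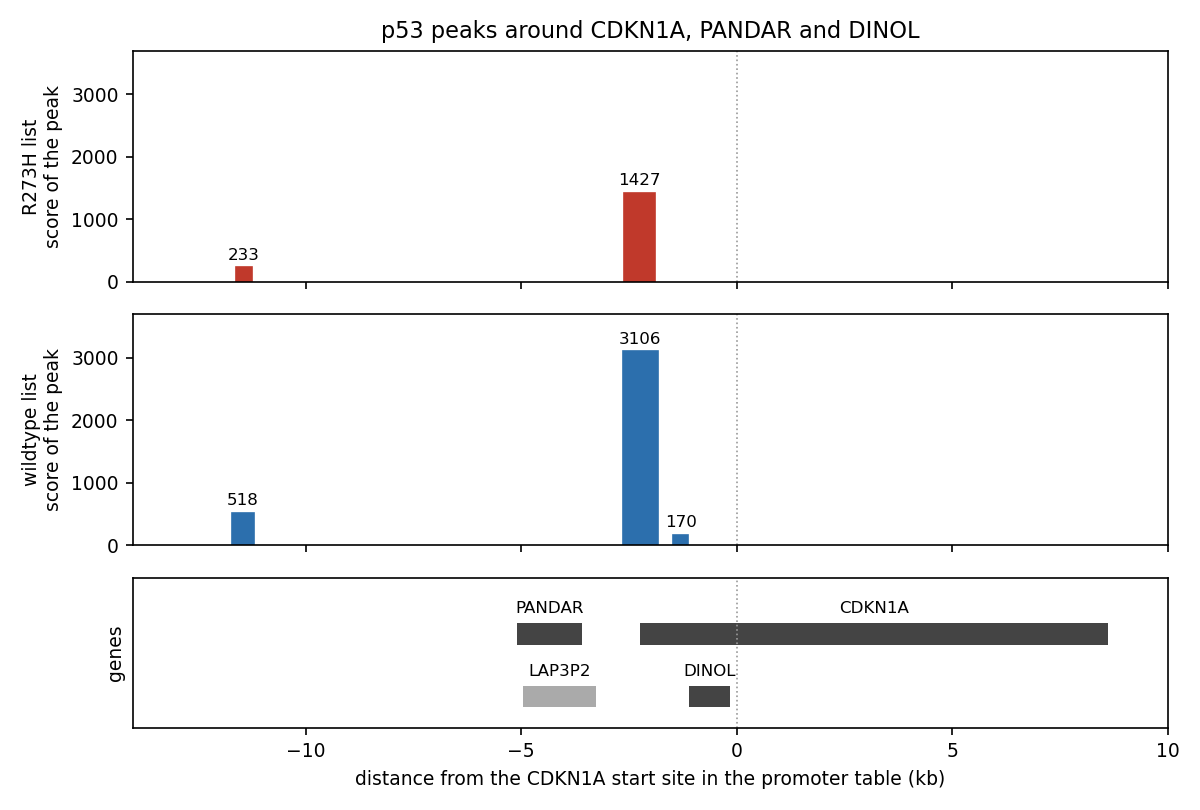
Peaks of the R273H list (top) and the wildtype list (middle) as bars spanning each peak, with the authors' score as height, and genes below, against distance from the CDKN1A start site in kb. Both lists have the far and the main peak, and the wildtype list alone has the near peak with a score of 170; the scores were given separately for each list and heights are not compared between panels.

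The main peak was among the highest-scoring of either list. Scores are the authors' own, given separately for each list. They are used here to rank peaks within a list and, further on, to set score cutoffs. An equal cutoff need not mean the same in both lists, so counts at a cutoff are not compared between genotypes. In the wildtype list the main peak had a score of 3106 and ranked 1 of 2059, with 22 other peaks tied at 3100. Because so many peaks tie at that value, its order among these 23 is not read further. In the R273H list it had a score of 1427 and ranked 16 of 2008, with 0.797% of peaks at or above that score. On chromosome 6 alone it ranked 1 of 104 wildtype peaks and 2 of 101 R273H peaks. It was therefore one of the 23 highest-scoring wildtype peaks, and it lay within the upper 1% of the R273H list.

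The far peak came next in both lists. In the R273H list, at 36667091 to 36667476, it had a score of 233 and ranked 152, with 7.57% of that list at or above it. In the wildtype list, at 36667000 to 36667528, it had a score of 518 and ranked 196, with 9.52% at or above it. The order main peak, then far peak was thus the same in both genotypes.

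The near peak was the lowest-scoring of the locus. In the wildtype list, at 36677247 to 36677587, it had a score of 170 and ranked 397, so that 19.3% of wildtype peaks were at or above it. It lay wholly inside the CDKN1A span and stopped 21 bp short of DINOL. The nearest R273H peak, the main one, ended 435 bp away from it. The R273H list started at a score of 50.02, and the signal beneath that level was not analysed here, so the list does not give the p53 signal at this place in R273H cells.

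**Figure D2:**
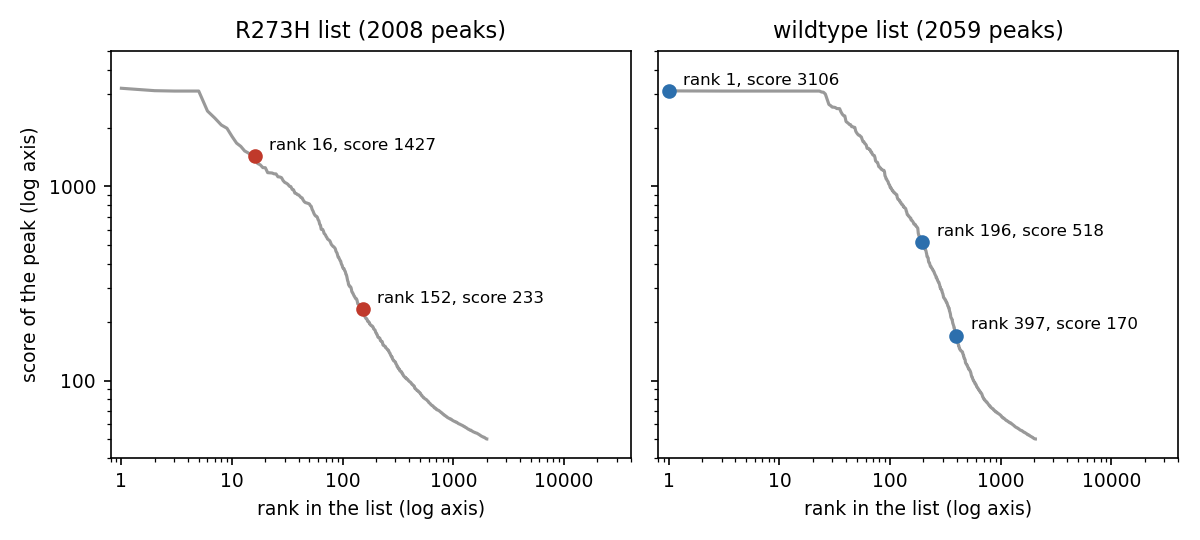
Score of every peak against its rank for the R273H list (left) and the wildtype list (right), both on log axes, with the peaks of the CDKN1A locus as filled points. The main peak stands at rank 16 for R273H and rank 1 for wildtype, and the near peak of the wildtype list stands at rank 397.

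The paired peaks covered nearly the same bases in the 2 genotypes. At the main peak the R273H and wildtype midpoints were 30 bp apart, and the lower edges differed by 12 bp and the upper edges by 72 bp. The R273H peak was 721 bp wide and lay entirely inside the 805 bp wildtype peak, of which it covered 89.6%. At the far peak the midpoints were 19 bp apart. There the R273H peak was 386 bp wide, again entirely inside the wildtype peak of 529 bp, of which it covered 73%. The upper-edge difference at the main peak lay on the DINOL side.

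Such nesting was frequent in this direction over the whole lists. Of the 440 R273H peaks that overlapped a wildtype peak, 260 lay entirely inside one, 59.1% (95% exact binomial interval 54.3 to 63.7). Of the 437 overlapping wildtype peaks, 48 lay entirely inside an R273H peak, 11% (8.21 to 14.3). Both R273H peaks at the locus therefore have the form that most overlapping R273H peaks had. The median peak was 375 bp wide for R273H and 324 bp for wildtype, so all peaks of the locus were wider than their list's median.

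Both R273H peaks of the locus shared at least 1 bp with a wildtype peak, and 2 of its 3 wildtype peaks had an R273H partner. The share over all peaks was 21.9% for R273H and 21.2% for wildtype, and the share differed by score. Among peaks scoring at least 1000, the range that holds the main peak, 33 of 33 were shared for R273H and 97 of 99 for wildtype, so a partner was usual there. Among R273H peaks scoring from 100 to below 250, the range that holds the far peak, 150 of 256 were shared, 58.6% (52.3 to 64.7). Among wildtype peaks in that range, which holds the near peak, 73 of 239 were shared, 30.5% (24.8 to 36.8). Most wildtype peaks that scored like the near peak thus had no R273H partner either. The peak numbers at the locus, 2 and 3, have exact 95% Poisson intervals of 0.242 to 7.22 and 0.619 to 8.77. The intervals take peaks as independent counts and do not cover variation between libraries. The difference of 1 peak was not tested.

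**Figure D3:**
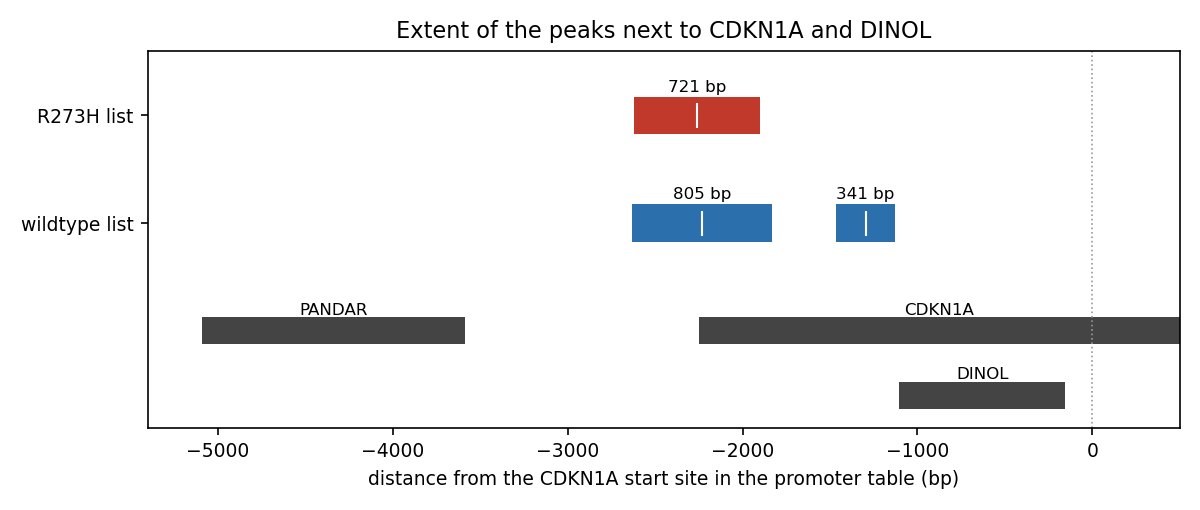
Extent of the main and near peaks (coloured bars, white tick at the midpoint, width in bp) with PANDAR, CDKN1A and DINOL below, against distance from the CDKN1A start site in bp. The R273H main peak lies inside the wildtype one, both cross the lower end of CDKN1A, and the wildtype near peak ends just before DINOL.

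Seen from each gene, the peaks were distributed unequally. CDKN1A, the p21 gene, had 1 R273H peak and 2 wildtype peaks that overlapped its span. Of the main peak, 349 bp for R273H and 421 bp for wildtype lay inside the gene, and the remainder lay before it. From its start site at 36678714 to its upper end CDKN1A carried no peak in either list. The edge of the main peak nearest to that start site was 1902 bp away for R273H and 1830 bp away for wildtype. A peak within 2.5 kb was found for 0.305% of the 35116 start sites with R273H peaks and 0.664% with wildtype peaks.

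PANDAR had no peak inside it in either list. It lay between the far peak and the main peak. The main peak was 964 bp from PANDAR for R273H and 952 bp for wildtype, and the far peak was 6144 bp and 6092 bp from it on the other side. The pseudogene LAP3P2 reached closer to the main peak, 645 bp away for R273H and 633 bp for wildtype. Peak positions alone do not assign the main peak to any one of these neighbours.

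DINOL also had no peak inside it. In the R273H list its nearest peak was the main one, 797 bp away. In the wildtype list the near peak was 21 bp away and the main peak 725 bp. The DINOL start site is at the opposite end of the gene, 971 bp from the near peak. Of the 3 genes, DINOL was the one whose distance to the nearest peak differed most between the lists.

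Within 10 kb, CDKN1A and PANDAR each had 2 R273H and 3 wildtype peaks, and DINOL had 1 and 2, since the far peak was just beyond that distance from it. Over all 59679 annotated genes, 2.36% had an R273H peak inside or within 10 kb and 3.48% a wildtype peak, and 1.03% had one in both lists. At least 2 R273H peaks were found for 0.322% of genes and at least 3 wildtype peaks for 0.23%. Among the 18303 lncRNA genes, the shares at that distance were 2.15% for R273H and 2.95% for wildtype. The 3 members share the same peaks and are not separate observations.

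The rest of the window was empty. The lncRNA gene LOC105375038 was 25078 bp from the nearest R273H peak and 24987 bp from the nearest wildtype peak. RAB44, which encodes a large Rab GTPase, was 21014 bp and 20238 bp away. The pseudogenes RNU1-88P (27.4 and 27.3 kb) and GPR166P (60.3 and 59.5 kb) were further off. The emptiness went on far outside the window. The next peak at lower coordinates was 3104 kb from the far peak in the R273H list, near BAK1 with a score of 56.1, and 5179 kb in the wildtype list, inside MICB-DT with a score of 2308. The next peak at higher coordinates was 1718 kb away in the R273H list (score 65) and 1717 kb in the wildtype list (85.7), in both cases inside BTBD9. The 50 kb limit therefore decided nothing: the peak farthest inside it was the far one, and the nearest outside it was over 1 Mb off. Peak numbers on chromosome 6 ran without a gap in both lists.

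CDKN1A was next set beside the other genes of its pathway. Of 21 p53 targets of arrest and feedback, CDKN1A included, 7 had an R273H peak inside or within 10 kb (33.3%) and 8 a wildtype peak (38.1%), beside 2.36% and 3.48% of all genes. With scores of at least 100, the R273H count was 4 and the wildtype count 7. All 7 genes with an R273H peak at any score also had a wildtype peak, and 13 genes had none in either list. CDKN1A held the highest score of this group in both lists. PLK2, a polo-like kinase gene, was second in both within 10 kb, with scores of 746 (R273H) and 2135 (wildtype). ZMAT3, which encodes an RNA-binding zinc finger protein, and TRIM22, a tripartite motif gene, followed with the order between them reversed from list to list. GADD45A, a DNA damage response gene, PHLDA3, an inhibitor of AKT signalling, and PLK3 closed the shared group, and TP53INP1 was marked in wildtype alone, with a score of 88.1. GDF15, which encodes a stress-induced cytokine, was counted as lacking a peak, since its nearest peaks were 11.8 kb (R273H, score 820) and 11.9 kb (wildtype, score 2015) away. That R273H score is above the one at PLK2, so the place of PLK2 in the R273H list depends on the 10 kb limit.

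**Figure D4:**
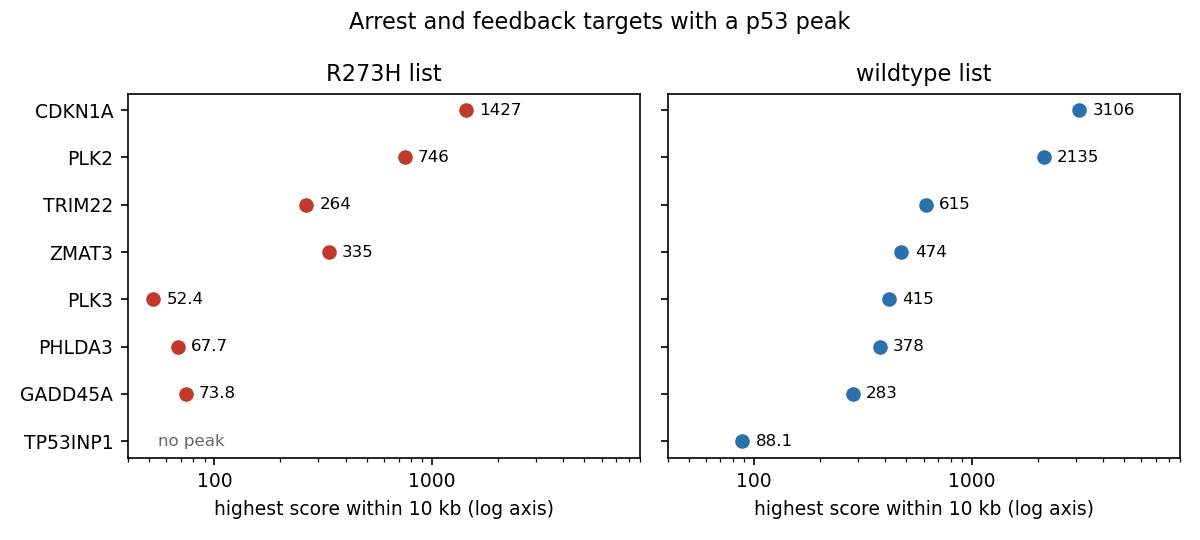
Highest score within 10 kb, on a log axis, for each arrest and feedback target with a peak in the R273H list (left) or the wildtype list (right); genes are ordered by the wildtype score. CDKN1A is highest in both panels, and TP53INP1 has no R273H peak.

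Within 10 kb, CDKN1A was also the gene of this group with the most peaks. It had 3 in the wildtype list, where no other member had more than 1. In the R273H list CDKN1A had 2, as did PHLDA3. The PHLDA3 pair, with scores of 67.7 and 50.9, lay under a single wildtype peak with a score of 378. The CDKN1A pair lay 8614 bp apart and each had its own wildtype partner. That form was not particular to CDKN1A. Beyond 10 kb but within 50 kb, GDF15 had 2 R273H peaks (scores 419 and 820). Each overlapped its own wildtype peak (scores 869 and 2015).

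Few peaks lay at the listed CDK inhibitor genes and p21 partner genes, and few lie at any gene. Of all genes, 2.36% had an R273H peak within 10 kb and 3.48% a wildtype peak. Of the 8 CDK inhibitor genes listed, CDKN1A was the only one with a peak inside or within 10 kb, in either list. CDKN1B and CDKN1C, the relatives of CDKN1A, and CDKN2A, CDKN2B, CDKN2C, CDKN2D and CDKN3 had 0. At these shares that is not a result about the listed genes. Of 12 genes for cyclins, CDKs and PCNA, whose products p21 binds, none had an R273H peak (0 of 12) and 2 carried a wildtype peak. These were PCNA, the replication clamp gene (score 277, rank 301, midpoint 196 bp from the nearer of its 2 listed start sites), and CCND3, which encodes cyclin D3 (score 68.1, rank 934). Neither had an R273H partner. A count of 2 of 12, or of 0 of 12, is too small to read against these shares, and the difference between genotypes has no replicate check.

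The geometry of the main peak was set beside 3 other strong p53 target loci. At PLK2 the highest-scoring peak had its midpoint 2180 bp upstream of the start site in the R273H list (rank 54). In the wildtype list it was 2178 bp upstream (rank 41). Both are close to the distance from the listed start site at CDKN1A. The PLK2 peaks lay outside the gene span, whereas the CDKN1A main peak crossed the lower end of its span. At MIR34AHG, the host gene of the microRNA miR-34a, the highest-scoring peak was 152 bp downstream of the start site in the R273H list (rank 25). In the wildtype list it was 111 bp downstream and tied at a score of 3100. At BBC3, the PUMA gene, it was 1271 bp and 1280 bp downstream (ranks 144 and 86). Each of these peaks overlapped its counterpart. The 2 lists placed the midpoint within 50 bp of each other at CDKN1A and at all 3 loci. Of wildtype peaks scoring at least 1000, as these did, 97 of 99 had an R273H partner, so overlap was usual there. How often midpoints lay that close over all shared peaks was not counted. BBC3 resembled CDKN1A in 1 further way: a weaker wildtype peak (score 102) without an R273H partner lay beside its strongest one. Of those 97 wildtype peaks, 10 had another wildtype peak within 1 kb that had no R273H partner.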

How the data were processed

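Per the submitters' processing notes, Bowtie 1.2.2, MACS and HOMER were used with build hg38; which tool did which step is not recorded there. The threshold for calling a peak, the versions of MACS and HOMER, how the input was used and any pooling were not given in the sources used here. Crosslinking took 5 minutes in 1% formaldehyde and sonication 10 minutes, per the labels' protocols. The authors deposited 2 peak lists with chromosome, start, end, name and a score per peak whose scale is not given. Each list was matched by its name to the title of a ChIP sample, because the sample descriptions name the R273H list for both ChIP samples and the control list for both inputs. If the descriptions were right, the list called wildtype here would not be a ChIP list of wildtype cells; its name and titles are the only basis for calling it so. Peak numbers in the lists as read began at 193 for R273H and at 228 for wildtype, so peaks with lower numbers were not analysed here. Numbers on chromosome 6 are unbroken and follow position, so none is missing there if the lower numbers kept that order.

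Starts were made 1-based with Python 3.11.15. Distances are bases between intervals, and overlap meant at least 1 bp. Genes and promoter windows are from RefSeq, GRCh38.p14, the assembly of hg38. The gene table gives spans without exons, so intron, exon and untranslated region are not stated. All 40 symbols of the 3 gene lists matched. Named genes were the members, all genes of the window, list members with a peak, and MIR34AHG, PLK2 and BBC3; GDF15, the CDK inhibitor genes without a peak, the genes at the next peaks outside the window and the loci with close second peaks were added after their values were seen. Intervals are exact 95% ones (SciPy 1.17.1) and cover counting error only. The members and lists were chosen with earlier results of these data known. Overlap counting was tested on simulated data. No test between genotypes was made.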

Additional observations from a re-analysis of the deposited data

How the results depend on the processing

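The number of peaks at the locus stayed at 2 for R273H and 3 for wildtype with distances of 10, 100 or 250 kb, with peaks at or above their list's median score, and with scores of at least 100. The shared peaks stayed at 2 in each list under reciprocal overlap, midpoints within 200 bp, scores of at least 100 and the 10 kb distance; allowing gaps of up to 1000 bp joined the near peak as well and gave 3 in the wildtype list. With scores of at least 100, arrest targets with an R273H peak fell from 7 to 4 and p21 partners with a wildtype peak from 2 to 1, because fewer peaks were counted. With 50 kb in place of 10 kb, CDK inhibitor genes with a wildtype peak rose from 1 to 2, the addition being CDKN1C at 40.2 kb with a score of 97. The other 41 of 44 alternative values were within 1.5 times the main count. No paired analysis was possible because each genotype had 1 ChIP library and no result comes from a test. Depth limits what a missing peak shows: without read counts, an absent R273H peak cannot be told from one below the authors' threshold.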

Other observations

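Second peaks beside strong ones were counted over the whole lists after the near peak at CDKN1A had been seen. Of 97 wildtype peaks that scored at least 1000 and overlapped an R273H peak, 10 had another wildtype peak within 1 kb that had no R273H partner, 10.3% (95% exact binomial interval 5.06 to 18.1). Of 33 such R273H peaks, 0 had an unpartnered R273H peak that close, with an upper limit of 10.6%. An equal score need not mean the same in both lists, so the 2 counts are not compared. The 10 wildtype peaks had 9 distinct second peaks, since 2 strong peaks on chromosome 21 had the same one beside them. The second peak at RNA18SN2 had the same score as the first (3100). At 8 of the 10 the gap was short, from 1 to 209 bp, and 4 of those 8 were on chromosome 21, in its stretch of ribosomal RNA genes. The 2 with longer gaps were CDKN1A, with 363 bp and a second score of 170, and BBC3, with 924 bp and a second score of 102.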
